A study of Mus musculus with 6 samples.

Results

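The neurotrophin system was described here through 6 genes, taken as the lines of a gene count table that carry the symbols *Bdnf*, *Ntf3*, *Ntrk2*, *Ntrk3*, *Ngfr* and *Sort1*, out of 24421 genes listed. The RNA came from primary cultures labelled as endothelial cells, which by the methods were grown from the stria vascularis together with the spiral ligament. The stria vascularis is the vascularized epithelium in the wall of the cochlear duct, and the ligament lies in the same wall. Of 6 cultures, 3 came from *Nhe6*-knockout mice and 3 from wildtype mice, each culture with 1 library. The comparison asks which transcripts differ between the 2 genotypes. All mice were on postnatal day 10 to 12, the labelled strain background of both groups was C57BL/6N, and no culture was treated. All 6 cultures grew in endothelial medium with 10% fetal bovine serum, the knockout was a targeted disruption of the gene in the whole animal, each culture pooled cells of several mice, and the methods describe purification of the cultured cells by fluorescence-activated sorting. The study's methods name a different C57BL/6 substrain from the labels, which is a limit on what the wildtype group stands for.

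Neurotrophins are secreted growth factors that are made as proneurotrophins and cut by proteases to their mature form. Mature neurotrophins bind Trk receptor tyrosine kinases, which signal from the cell surface and from endosomes through the ERK, PI3-kinase and phospholipase C pathways, while the p75 receptor (*Ngfr*) with sortilin (*Sort1*) binds the proforms. In the inner ear BDNF and NT-3 are best known for keeping the sensory neurons of the cochlea and vestibule alive, through TrkB and TrkC.

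The libraries held 25587097 to 29126232 reads assigned to genes. Of all genes, 13479 had enough reads to be tested with edgeR's quasi-likelihood test, and each fold change is that of *Nhe6*-knockout over wildtype, with p-values adjusted by the Benjamini-Hochberg method over all of them. Levels of a gene are normalized counts, that is reads scaled to the mean library size with TMM factors, and p-values measure the spread between 3 cultures per group. Wildtype replicate 2 stood apart from all other libraries, at 112 on the first principal component against -30.4 to -6.49, and 16.4% of the genes tested were over 2-fold higher or lower there than in both other wildtype libraries. *Nhe6*-knockout replicates 1 and 2 were the most alike pair, with a chi-square per gene of 5.37 against 107 to 477 for all other pairs within a group, and were counted as the separate samples that the labels give. The value is above sampling noise, which does not tell separate cultures from repeat preparations of 1 RNA. Their sum as 1 sample left *Bdnf* at a log2 fold change of -1.53 (adjusted p = 0.834 in edgeR's test). Of 15 endothelial markers, 7 averaged 100 normalized counts or more, among them *Emcn* and *Cdh5*, while *Pecam1*, *Tie1* and *Cldn5* had at most 10 reads in every library. Of 10 fibroblast markers, 10 averaged 100 or more. The cultures are called by their label here, and the cells that held a transcript are not known. In bulk RNA, fewer cells of a type and less RNA per cell cannot be told apart.

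Of the 6 genes, 4 passed the filter on low counts, and *Ntf3* and *Ngfr* did not. None of the 4 passed an adjusted p of 0.05 in edgeR's test, as 0.0668% of all genes tested did, and 1 of 4 (*Bdnf*) had an unadjusted p under 0.05, against 11.8% of all genes tested. DESeq2's Wald test also called 0 of the 4, and it called 4.69% of all genes with an adjusted p. *Bdnf* was the 1 gene of the 4 that was lower in every *Nhe6*-knockout than in every wildtype library, which held for 9.57% of all genes tested.

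**Figure D1:**
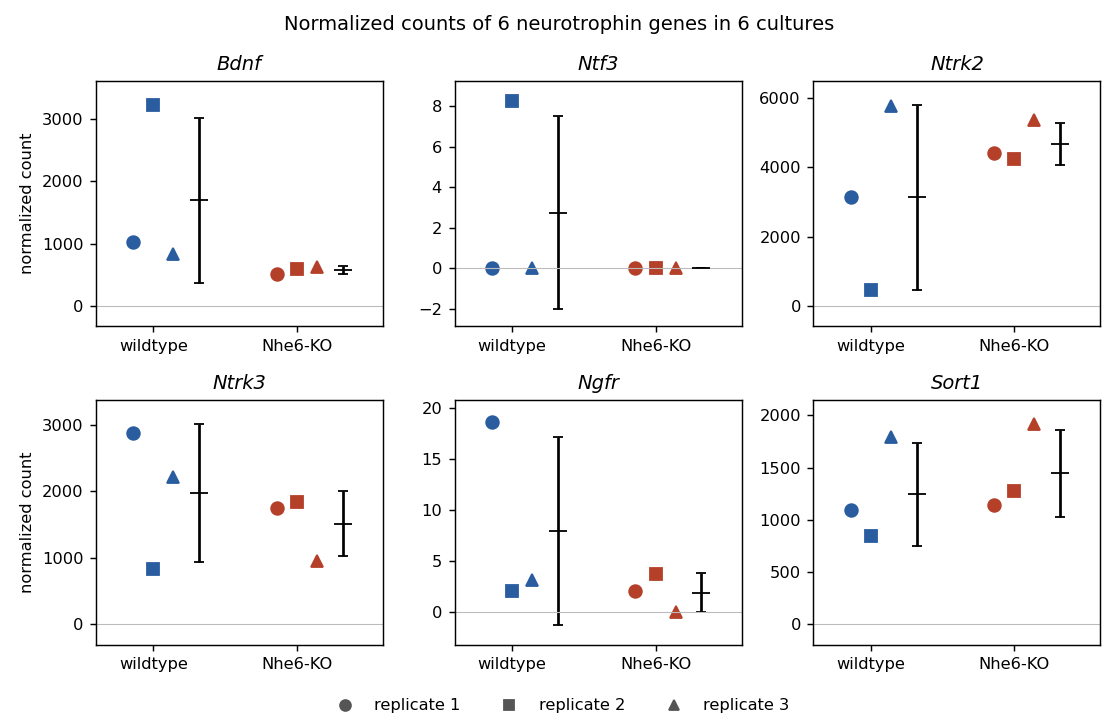
Normalized count (vertical axis, linear, own scale per panel) of each of the 6 genes in 3 wildtype (blue) and 3 *Nhe6*-knockout (red) cultures, with 1 symbol per replicate and the mean ± SD in black. Wildtype replicate 2 (square) is the highest wildtype library for *Bdnf* and the lowest for *Ntrk2*, *Ntrk3* and *Sort1*, and *Bdnf* is the 1 panel where every *Nhe6*-knockout point lies below every wildtype point.

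*Bdnf* encodes brain-derived neurotrophic factor, the ligand of TrkB. It lies on chromosome 2 at 109674700 to 109727007 on the forward strand (GRCm38), with 11 annotated transcripts that start from several promoters, and the counts do not separate them. *Bdnf* held 511, 598 and 620 normalized counts in the *Nhe6*-knockout libraries and 1024, 3217 and 838 in the wildtype libraries. The *Nhe6*-knockout libraries were all below the wildtype libraries and close together, with a coefficient of variation of 10.0% against 78.2% in wildtype. The mean was 576 ± 57.7 in *Nhe6*-knockout and 1693 ± 1323 in wildtype cells (SD, n = 3 each). The log2 fold change was -1.55 ± 0.52 (SE, 95% confidence interval -2.81 to -0.30), with an unadjusted p of 0.0229 and an adjusted p of 0.322 in edgeR's test, so the difference did not pass the threshold. DESeq2's Wald test gave an adjusted p of 0.0547 and limma-voom 0.422, and the two-sided exact permutation p was 0.1, the smallest that 3 against 3 cultures allow.

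Much of the size of this difference came from 1 library, since wildtype replicate 2 held 3.46 times the mean of the other wildtype libraries. Without it, the wildtype libraries held 1024 and 838 and still lay above all *Nhe6*-knockout libraries. The log2 fold change was then -0.70 ± 0.16, with a 95% interval of -1.08 to -0.31. The adjusted p was 0.0802 in edgeR's test, in which 2.88% of all genes passed, and 0.00966 in DESeq2's, in which 10% passed. *Bdnf* was the 1 gene of the 4 that DESeq2 called without wildtype replicate 2. The smaller *Bdnf* difference between the remaining 5 libraries thus passed the threshold with 1 of these 2 tests. Both tests counted *Nhe6*-knockout replicates 1 and 2 as separate samples, and the sum of these replicates was not tried without wildtype replicate 2.

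RefSeq lists 7 promoter windows of *Bdnf*, each 250 bases before to 50 bases after a transcript start. The one below is shown because it was the 1 window of 7, and the 1 among all windows found for the 6 genes, that holds the core of the cyclic AMP response element (TGACG, searched on both strands), the letters bound by CREB, a factor known for driving activity-dependent *Bdnf* transcription. The core is in capitals, read on the opposite strand as CGTCA, and begins 35 bases before the start. It is also part of the full element TGACGTCA, which no window of these genes holds. Of all 32817 promoter windows of that length in the mouse table, 20.8% hold the core and 1.79% the full element. The match is a description of letters, and the data say nothing on which *Bdnf* promoter was used.
Bdnf promoter window, GRCm38.p6 chr2:109692186-109692485, forward strand: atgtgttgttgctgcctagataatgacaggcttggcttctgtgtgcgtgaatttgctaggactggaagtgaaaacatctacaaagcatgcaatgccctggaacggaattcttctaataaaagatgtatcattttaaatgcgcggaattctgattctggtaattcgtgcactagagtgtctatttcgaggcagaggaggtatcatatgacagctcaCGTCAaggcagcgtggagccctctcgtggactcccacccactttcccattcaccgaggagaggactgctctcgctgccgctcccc

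*Ntf3* encodes NT-3, the main ligand of TrkC, and lies on chromosome 6 at 126101412 to 126166910 on the reverse strand. It had 0 reads in 5 of the 6 libraries and 8 reads in wildtype replicate 2. A count of 0 allows up to 3 reads, or 2.79 to 3.21 normalized counts in these libraries, so *Ntf3* was at or under the limit of detection outside wildtype replicate 2 and no fold change is given. Such a limit covers counting error only.

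*Ntrk2* encodes TrkB, the receptor of BDNF and NT-4, and lies on chromosome 13 at 58806569 to 59133970 on the forward strand. Of its 10 annotated transcripts, 7 are coding, among them full-length and truncated receptors that lack the kinase, and the counts per gene do not tell these apart. The *Nhe6*-knockout libraries held 4420, 4237 and 5364 normalized counts and the wildtype libraries 3160, 460 and 5790. The groups overlapped, because wildtype replicate 3 was the highest of all 6 libraries and wildtype replicate 2 the lowest. The mean was 4674 ± 605 in *Nhe6*-knockout and 3137 ± 2665 in wildtype cells (SD, n = 3 each), and the log2 fold change was 0.58 ± 0.76 (95% interval -1.26 to 2.41, adjusted p = 0.827). Both remaining wildtype libraries averaged 9.72 times the level of wildtype replicate 2, a distance that 3.73% of all genes tested reached or passed in either direction. Without that library the log2 fold change was 0.057 (95% interval -0.60 to 0.72), which bounds the difference between the other 5 cultures.

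*Ntrk2* was the most abundant of the 6 genes per length in *Nhe6*-knockout cells, though not in wildtype cells. Its single RefSeq promoter window is shown beside its level, with matches to the GC box (GGGCGG on either strand), the letters that SP1 family factors bind, in capitals. It holds 1 GC box, as at least 1 is held by 35.6% of all windows, and no core of the cyclic AMP response element.
Ntrk2 promoter window, GRCm38.p6 chr13:58806319-58806618, forward strand: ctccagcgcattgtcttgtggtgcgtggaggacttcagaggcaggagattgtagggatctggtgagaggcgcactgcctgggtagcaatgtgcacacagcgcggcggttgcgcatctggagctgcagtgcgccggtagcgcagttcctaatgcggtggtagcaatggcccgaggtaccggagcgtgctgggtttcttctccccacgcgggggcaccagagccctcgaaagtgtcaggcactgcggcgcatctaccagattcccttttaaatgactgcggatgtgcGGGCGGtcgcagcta

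*Ntrk3* encodes TrkC, the receptor of NT-3, and lies on chromosome 7 at 78175959 to 78738012 on the reverse strand, with 20 annotated transcripts of which 6 are coding. It held 1749, 1843 and 950 normalized counts in the *Nhe6*-knockout libraries and 2876, 837 and 2216 in the wildtype libraries. The highest libraries were wildtype replicates 1 and 3, but wildtype replicate 2 lay below every *Nhe6*-knockout library, so the groups overlapped. The mean was 1514 ± 491 in *Nhe6*-knockout and 1976 ± 1041 in wildtype cells (SD, n = 3 each), with a log2 fold change of -0.38 ± 0.47 (95% interval -1.52 to 0.76, adjusted p = 0.810). The wildtype replicates 1 and 3 held 3.04 times the level of wildtype replicate 2. Without that library the log2 fold change was -0.75 ± 0.30, with an unadjusted p of 0.0431 and an adjusted p of 0.239 in edgeR's test and 0.134 in DESeq2's. *Bdnf* and *Ntrk3* were thus the 2 of 4 genes with an unadjusted p under 0.05 in edgeR's test of these 5 libraries, where 19.5% of all genes tested had one.

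*Ngfr* encodes p75, the receptor that binds all neurotrophins and, with sortilin, their proforms, and is on chromosome 11 at 95568818 to 95587735 on the reverse strand. It had 2, 4 and 0 reads in the *Nhe6*-knockout libraries and 19, 2 and 3 reads in the wildtype libraries, or means of 1.95 ± 1.87 and 7.95 ± 9.22 normalized counts (SD, n = 3 each). Wildtype replicate 1 was the 1 library above 4 reads, and the rest overlapped. The gene was below the filter, and a difference between the genotypes was not detectable at this depth. With no filter beyond 1 count, *Ntf3* and *Ngfr* entered edgeR's test with the other 4 genes, and 0 of 6 passed the threshold. The promoter window of *Ngfr* is shown as the counterpart of the one of *Ntrk2*, since a gene with almost no reads holds 4 GC boxes (in capitals) where *Ntrk2* holds 1, and it also holds no core of the cyclic AMP response element.
Ngfr promoter window, GRCm38.p6 chr11:95587649-95587948, reverse strand: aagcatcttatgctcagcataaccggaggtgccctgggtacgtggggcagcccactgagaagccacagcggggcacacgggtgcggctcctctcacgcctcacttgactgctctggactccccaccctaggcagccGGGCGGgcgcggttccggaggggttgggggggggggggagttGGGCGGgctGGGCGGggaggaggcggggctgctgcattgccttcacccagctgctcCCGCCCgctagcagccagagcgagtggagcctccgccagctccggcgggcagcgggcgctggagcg

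*Sort1* encodes sortilin, a sorting receptor that carries BDNF to the regulated secretory route and joins p75 in binding proneurotrophins. It lies on chromosome 3 at 108284082 to 108361511 on the forward strand. It held 1142, 1277 and 1920 normalized counts in the *Nhe6*-knockout libraries and 1091, 847 and 1789 in the wildtype libraries. Replicate 3 was the highest library in each group, and the groups overlapped over most of their range. The mean was 1446 ± 416 in *Nhe6*-knockout and 1243 ± 489 in wildtype cells (SD, n = 3 each), with a log2 fold change of 0.22 ± 0.33 (95% interval -0.57 to 1.01, adjusted p = 0.850). It was the 1 tested gene of the 4 for which wildtype replicate 2, although the lowest library, was not over 2-fold from both others. Without wildtype replicate 2 the log2 fold change was 7.37e-04, with a 95% interval of -0.73 to 0.73, and without *Nhe6*-knockout replicate 3 it was -0.047, so no direction is given for *Sort1*.

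**Figure D2:**
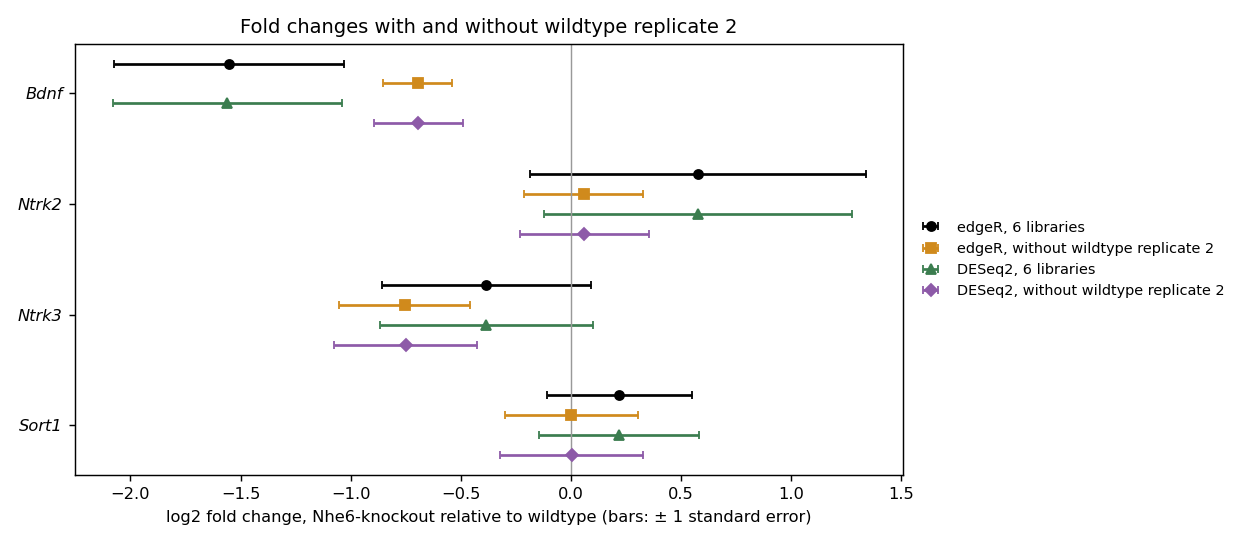
Log2 fold change of *Nhe6*-knockout relative to wildtype (horizontal axis, bars ± 1 SE) for the 4 tested genes, in edgeR and DESeq2, with all 6 libraries and without wildtype replicate 2. *Bdnf* stays below 0 in all 4 fits, moving from -1.55 to -0.70 in edgeR, while *Ntrk2* moves from 0.58 to 0.057.

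Within the *Nhe6*-knockout group, *Bdnf* and *Ntrk2* varied about as much as the typical gene, with coefficients of variation of 10.0% and 12.9% beside a median of 10.7% over all genes tested. *Ntrk3* (32.4%) and *Sort1* (28.7%) varied more, *Ntrk3* because *Nhe6*-knockout replicate 3 was low and *Sort1* because the same library was high. Within wildtype, the coefficients were 78.2% for *Bdnf*, 85.0% for *Ntrk2*, 52.6% for *Ntrk3* and 39.3% for *Sort1*, all above the median of 23.6%. Without wildtype replicate 2 they were 14.1%, 41.6%, 18.3% and 34.2%, beside a median of 17.1%.

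Wildtype replicate 2 was over 2-fold from both other wildtype libraries for *Bdnf*, *Ntrk2* and *Ntrk3*, and it differed from them in markers of cell types as well. The smooth muscle actin gene *Acta2* had 16275 normalized counts there, against 29.3 and 70.6 in the other wildtype and 280 to 1204 in the *Nhe6*-knockout libraries, and the collagen gene *Col1a1* had 27187 against 207 and 213 in the other wildtype and 513 to 1228 in the *Nhe6*-knockout libraries. The sum over 10 fibroblast markers was 395621 there and 255333 to 287116 in the other 5 libraries, and that over 6 genes of the otic mesenchyme, which surrounds the developing inner ear, was 6907 there and 28902 to 50716 elsewhere. The sum over 11 mural cell markers was 35280 there and 16268 to 24372 elsewhere, but its members moved in opposite directions. *Acta2* and *Tagln*, at 16275 and 5339, were highest there, while *Pdgfrb* was lowest there, at 7793 against 14685 to 18992 elsewhere. The sum over macrophage markers was 66.0 there and 629 to 1654 elsewhere. Summed markers of endothelium ranged from 16980 to 26014 in *Nhe6*-knockout and from 16026 to 23731 in wildtype libraries. Outside wildtype replicate 2, most of this sum was *Emcn*, the endomucin gene, at 9900 to 18393. In wildtype replicate 2 *Emcn* was at 410 of a sum of 16026, so most of it came from other markers there. *Emcn* is also among the 6 genes of the otic mesenchyme sum. Of the 10 tested endothelial markers 3 were lower in *Nhe6*-knockout cells at an unadjusted p under 0.05, beside 11.8% of all genes tested in either direction. In edgeR's test 1 of them passed the threshold, beside 0.0668% of all genes tested. *Cdh5*, the VE-cadherin gene, held 179 to 232 in *Nhe6*-knockout and 2509 to 5200 in wildtype libraries, at a log2 fold change of -4.15 ± 0.31 (adjusted p = 0.0133). The neuronal marker *Rbfox3* and the early Schwann cell marker *Foxd3* had 0 reads in all 6 libraries, and the Schwann cell factor *Sox10* had 0 to 44. The summed levels of 12 neuronal genes were 1734 to 2758 in *Nhe6*-knockout and 2314 to 3796 in wildtype, and those of 13 Schwann cell and glial genes 8581 to 12130 and 11995 to 21475. The part of these markers in the levels of *Bdnf*, *Ntrk2* and *Ntrk3* was not tested.

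**Figure D3:**
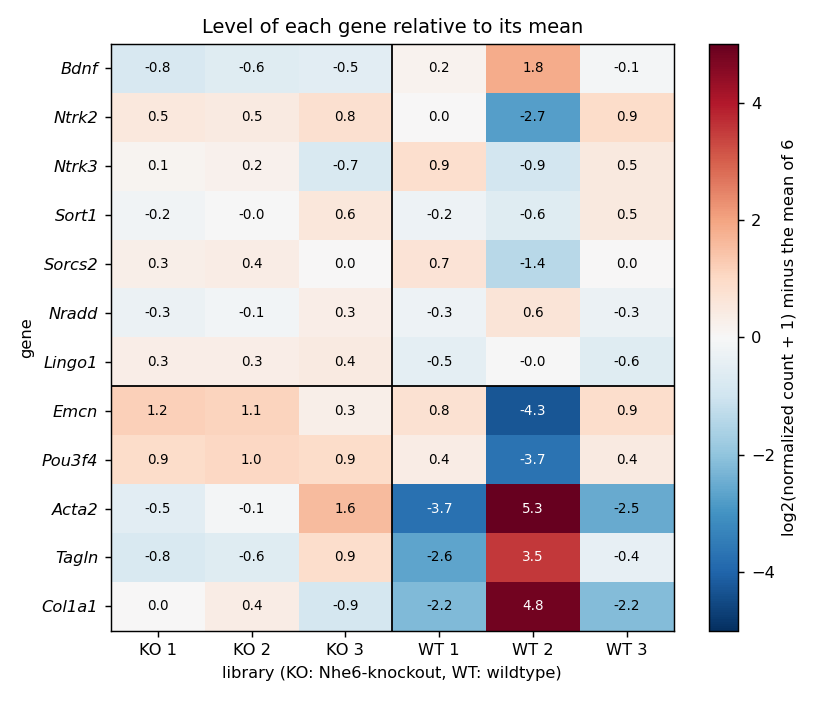
Log2(normalized count + 1) minus its mean over the 6 libraries (colour and printed value) for neurotrophin ligands and receptors (above the line) and genes of cell types (below the line), in columns per library. Wildtype replicate 2 is 1.8 above the mean for *Bdnf* and 2.7 below it for *Ntrk2*, beside 5.3 above for *Acta2* and 4.3 below for the mucin-like gene *Emcn*.

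The genes with the pattern most like each of the 4 were found by Pearson's r of log2(normalized count + 1) over the 6 libraries, among 11126 genes with a mean of at least 100. For *Bdnf* these were *Foxd1*, *Tnfaip1* and *Nudcd3*, with r of 0.998, 0.996 and 0.995. *Foxd1*, a forkhead transcription factor, held 56.3, 77.1 and 72.9 normalized counts in the *Nhe6*-knockout libraries and 195, 2383 and 153 in the wildtype libraries, so its 2 groups also did not overlap and wildtype replicate 2 was again the highest. For *Ntrk2* they were *Eya4*, *Specc1* and *Lrrtm4*, with r of 0.9996, 0.9992 and 0.9988. *Eya4*, a transcriptional coactivator with a role in the inner ear, held 3347, 3274 and 3987 in the *Nhe6*-knockout and 2500, 347 and 4594 in the wildtype libraries, the order of libraries found for *Ntrk2*. *Ntrk3* was most like *Rab3d*, *1500011K16Rik* and *Steap3* (r of 0.995, 0.991 and 0.990), and *Sort1* most like *Nup43*, *Dclre1a* and *Tial1* (r of 0.988, 0.985 and 0.982). Without wildtype replicate 2 (n = 5 libraries) these 12 values were 0.966 to 0.999. With 6 libraries such values are a description: 424 genes had an r over 0.9 with *Bdnf*, 528 with *Ntrk2*, 240 with *Ntrk3* and 192 with *Sort1*.

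Compared per length, as reads per 1e6 reads of the TMM-scaled library and per kilobase of all annotated exons, *Ntrk2* was the most abundant of the 6 genes in *Nhe6*-knockout cells, at 8.79 ± 1.14 (SD, n = 3), followed by *Sort1* at 6.93 ± 1.99, *Bdnf* at 3.36 ± 0.34 and *Ntrk3* at 1.82 ± 0.59. *Ngfr* was at 0.0205 ± 0.0196 and *Ntf3* at 0. The ranges of *Ntrk2* and *Sort1* over the *Nhe6*-knockout libraries overlapped, whereas those of *Sort1* and *Bdnf*, and of *Bdnf* and *Ntrk3*, did not. In wildtype cells the levels per length were 9.88 ± 7.72 for *Bdnf*, 5.96 ± 2.34 for *Sort1*, 5.90 ± 5.01 for *Ntrk2* and 2.38 ± 1.25 for *Ntrk3*, and these neighbours did not differ beyond their spread. Over all 6 libraries, the level of *Ntrk2* was 7.34 with all exons and 16.2 with the longest transcript as the length, the largest such shift of the 6 genes. That of *Ntrk3* was 2.10 and 3.21. The means over the 5 libraries other than wildtype replicate 2 were 8.64 for *Ntrk2*, 6.92 for *Sort1*, 4.19 for *Bdnf* and 2.32 for *Ntrk3*, with *Bdnf* below *Sort1*.

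The ratio of *Ntrk2* to *Ntrk3* per length, the receptors for BDNF and NT-3, was 3.95, 3.60 and 8.83 in the *Nhe6*-knockout and 1.72, 0.860 and 4.09 in the wildtype libraries of replicates 1 to 3, and the groups overlapped. The ratio of *Sort1* to *Ntrk2*, per length, was 0.658 to 0.912 in the *Nhe6*-knockout libraries, and 0.880 and 0.788 in wildtype replicates 1 and 3 but 4.69 in wildtype replicate 2.

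**Figure D4:**
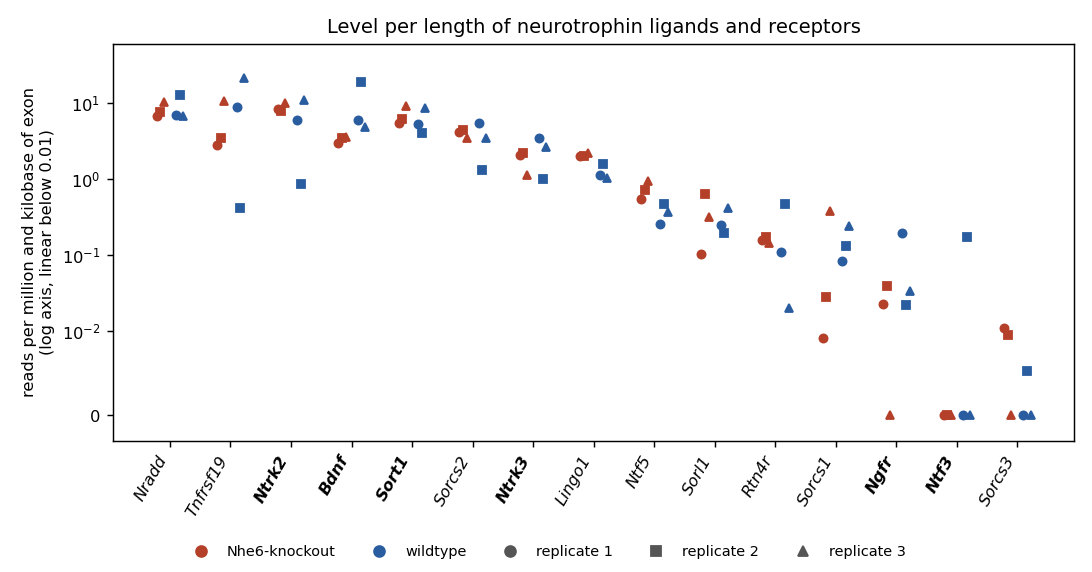
Reads per kilobase of exon, scaled for library size (vertical axis, logarithmic, linear below 0.01) of the 6 genes (bold) and 9 other ligands and receptors, in order of their mean, for *Nhe6*-knockout (red) and wildtype (blue) cultures, with a symbol per replicate. *Ntrk2*, *Bdnf* and *Sort1* lie together near the upper end, while *Ngfr* and *Ntf3* lie at or near 0 with *Sorcs3*.

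The other ligands, receptors and coreceptors of the family described here were 9 genes, of which 7 were tested, 0 passed the threshold and 2 (*Ntf5* and *Lingo1*) had an unadjusted p under 0.05, both higher in *Nhe6*-knockout cells, beside 11.8% of all genes tested. Their median log2 fold change was 0.24, beside -0.016 over all genes tested, and 0.085 without wildtype replicate 2.

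*Ntf5*, which encodes NT-4, the other ligand of TrkB, held 40.4, 53.0 and 68.2 normalized counts in the *Nhe6*-knockout and 18.6, 34.1 and 26.7 in the wildtype libraries. Every *Nhe6*-knockout library was above every wildtype library, which held for 10.3% of all genes tested, and the log2 fold change was 1.02 ± 0.39 (adjusted p = 0.386). *Lingo1*, a coreceptor of p75 and the Nogo receptor, was also without overlap, at 260, 265 and 282 against 149, 206 and 135, with a log2 fold change of 0.72 ± 0.22 (adjusted p = 0.286). Without wildtype replicate 2 it was at 0.92, with an adjusted p of 0.0628 in edgeR's and 0.00130 in DESeq2's test. The Nogo receptor gene *Rtn4r*, at 1.07 to 24.8 normalized counts, and *Sorcs3*, at 0 to 2.12, were below the filter.

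The sortilin relatives *Sorcs1*, *Sorcs2* and *Sorl1* had log2 fold changes of -0.13 ± 1.22, 0.24 ± 0.47 and 0.31 ± 0.66, and those of *Nradd*, a relative of p75, and *Tnfrsf19*, the TROY receptor, were -0.10 ± 0.31 and -0.86 ± 1.17. All 5 overlapped between the groups, with adjusted p from 0.834 to 0.974. *Tnfrsf19* ranged from 53.7 in wildtype replicate 2 to 2823 in wildtype replicate 3, and *Sorcs2* was lowest in wildtype replicate 2, at 318 against 848 to 1333 elsewhere.

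Proteases that cut proneurotrophins and their regulators were 15 genes, of which 11 were tested, 0 passed the threshold and 1 was higher at an unadjusted p under 0.05, beside 11.8% of all genes tested. The median log2 fold change was 0.17, and 0.42 without wildtype replicate 2. That gene was *Furin*, the convertase that cuts proneurotrophins in the secretory route, at 2949, 3302 and 3307 normalized counts in the *Nhe6*-knockout and 2446, 2414 and 1807 in the wildtype libraries, without overlap, and a log2 fold change of 0.52 ± 0.15 (adjusted p = 0.262, and 0.0367 in DESeq2's test without wildtype replicate 2). The related convertases *Pcsk5* and *Pcsk6* had log2 fold changes of 0.61 ± 0.46 and 0.34 ± 0.28 (adjusted p = 0.667 and 0.703). *Pcsk5* without wildtype replicate 2 was at 1.27, with an adjusted p of 0.0738 in edgeR's and 0.00115 in DESeq2's test.

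Adaptors that pass the Trk signal on were 21 genes with 19 tested, of which 0 passed the threshold and 1 was lower and 1 higher at an unadjusted p under 0.05, beside 11.8% of all genes tested, with a median of -0.087 (-0.026 without wildtype replicate 2). The higher one was *Shc1*, which encodes the adaptor that binds the activated Trk receptor, at 9068 to 9901 normalized counts in *Nhe6*-knockout and 6910 to 7813 in wildtype libraries, with a log2 fold change of 0.38 ± 0.12 (adjusted p = 0.300 in edgeR's and 0.0385 in DESeq2's test, and 0.0791 in the latter without wildtype replicate 2). The lower one was *Sos2*, an exchange factor for Ras, at -0.44 ± 0.16 (adjusted p = 0.363), and *Gab1*, a docking protein, was at -0.34 ± 0.15 (adjusted p = 0.446). Of 18 genes for proteins that bind p75 or act below it, 17 were in the table and tested, 0 passed the threshold and 1 was higher at an unadjusted p under 0.05, beside 11.8% of all genes tested, with a median of -0.090. That gene was *Traf4*, a TRAF family adaptor, at 1335 to 1614 in *Nhe6*-knockout against 510 to 1220 in wildtype libraries, with a log2 fold change of 0.89 ± 0.33 (adjusted p = 0.367). *Rhoa*, the small GTPase that p75 regulates, was at -0.27 ± 0.14 and the kinase gene *Ripk2* at -0.33 ± 0.20 (adjusted p = 0.503 and 0.579).

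Trk receptors signal after uptake into endosomes, and 20 genes of this traffic were all tested. Of these, 0 passed the threshold in edgeR's test, and at an unadjusted p under 0.05 there were 2 lower genes and 1 higher gene, beside 11.8% of all genes tested, with a median of -0.13 (-0.045 without wildtype replicate 2). *Appl2*, an adaptor of signaling endosomes, held 2423 to 2705 normalized counts in *Nhe6*-knockout and 3180 to 4465 in wildtype libraries, without overlap, at a log2 fold change of -0.56 ± 0.15 (adjusted p = 0.228 in edgeR's and 0.0582 in DESeq2's test). *Slc9a9*, which encodes the endosomal exchanger NHE9, held 1178, 1158 and 779 in the *Nhe6*-knockout and 2276, 1197 and 2126 in the wildtype libraries, at -0.85 ± 0.29 (adjusted p = 0.327) and, without wildtype replicate 2, at -1.09 (adjusted p = 0.0506 in edgeR's and 2.23e-04 in DESeq2's test). *Cblb*, a ubiquitin ligase of receptor tyrosine kinases, was higher without overlap, at 3584 to 4136 against 2456 to 3041, with a log2 fold change of 0.53 ± 0.13 (adjusted p = 0.185 in edgeR's and 0.0258 in DESeq2's test, and 0.0551 in the latter without wildtype replicate 2).

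Genes that respond to ERK and TrkB signaling were 19, of which 16 were tested, 0 passed the threshold in edgeR's test and 1 was lower and 3 were higher at an unadjusted p under 0.05, beside 11.8% of all genes tested, with a median log2 fold change of 0.28. Every *Nhe6*-knockout library was above every wildtype library for 6 of the 16, beside 10.3% of all genes tested. *Spry1*, an inhibitor of receptor tyrosine kinase signaling, held 664, 581 and 190 normalized counts in the *Nhe6*-knockout and 145, 98.0 and 104 in the wildtype libraries, with a log2 fold change of 2.05 ± 0.48 (adjusted p = 0.166 in edgeR's and 0.00188 in DESeq2's test). *Dusp4*, a phosphatase of MAP kinases, held 562, 641 and 409 against 213, 247 and 299, at 1.09 ± 0.23 (adjusted p = 0.134 in edgeR's and 0.00316 in DESeq2's test). *Etv4*, an ETS factor, was at 1.86 ± 0.67 and *Ier3*, an immediate early gene named after its values were seen, at -1.29 ± 0.53 (adjusted p = 0.358 and 0.420). Without wildtype replicate 2, *Etv4* was at 2.76, with an adjusted p of 0.0534 in edgeR's and 2.26e-06 in DESeq2's test. *Ier3* was then at -1.63, with an adjusted p of 0.107 in edgeR's and 0.00249 in DESeq2's test. The median of the list without that library was 0.37. The list did not move in 1 direction, as 7 of the 16 tested genes had a log2 fold change below 0. Its genes also answer to growth factors other than neurotrophins. A summed list of 12 cell cycle genes was higher in *Nhe6*-knockout libraries, at 7146 to 13059 normalized counts against 2165 to 3384 in wildtype libraries. Of the 12, 11 were higher at an unadjusted p under 0.05, beside 11.8% of all genes tested in either direction, and 0 passed the threshold in edgeR's test. The part of the cell cycle genes in the result was not tested.

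Of 16 regulators of *Bdnf* transcription, all tested, 0 passed the threshold and 2 were higher at an unadjusted p under 0.05, beside 11.8% of all genes tested, with a median of 0.052 (0.028 without wildtype replicate 2). *Rest*, a repressor of neuronal genes, held 1503, 1444 and 1734 normalized counts in the *Nhe6*-knockout and 743, 1138 and 1219 in the wildtype libraries, with a log2 fold change of 0.59 ± 0.21 (adjusted p = 0.345), and *Crtc1*, a coactivator of CREB, was at 0.33 ± 0.12 (adjusted p = 0.357). *Nfkb1* was at 0.33 ± 0.14 (adjusted p = 0.425), and all 3 were without overlap between the groups. Of the 16 regulators, 4 were higher in every *Nhe6*-knockout than in every wildtype library, beside 10.3% of all genes tested. The reverse held for 1, beside 9.57%.

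**Figure D5:**
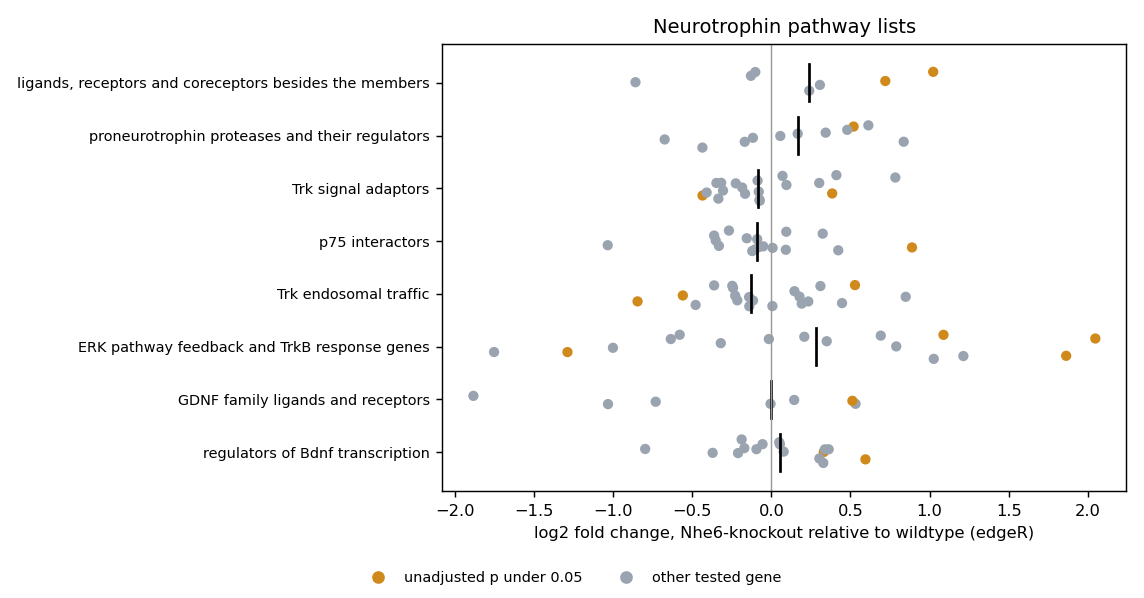
Log2 fold change of *Nhe6*-knockout relative to wildtype in edgeR (horizontal axis) for each tested gene of 8 lists around the neurotrophin pathway, with the median of each list as a black bar. Genes with an unadjusted p under 0.05 are orange, 0 genes of these lists passed the adjusted threshold, and the medians lie between -0.13 and 0.28.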

How the data were processed

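RNA sequencing of 6 untreated cultures, 3 per genotype, was analysed. Per the labels and the submitters' processing notes, poly(A)-enriched stranded libraries were sequenced with a kit of 75 cycles, and the notes list bcl2fastq 2.20.0.422, STAR 2.7.7a, HTSeq 0.13.5, DESeq2 1.26.0 and mm10. The deposited values are the authors' raw counts of reads per gene symbol, without normalization. The strand setting of the counting is not given in the sources used here. GENCODE M21 places antisense genes over *Bdnf*, *Ntrk2* and *Sort1*, and an intronic transcript within *Ntrk3*. None of these 4 is a line of the table, and reads from them cannot be told apart from the gene's own unless strand was used. The 5 summary lines, holding 21.5% to 23.6% of a library, were left out.

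Genes were filtered with filterByExpr (minimum count 10), normalized with TMM (factors 0.976 to 1.03) and tested with edgeR 4.0.16 in R 4.3.3 (quasi-likelihood, two-sided, design of genotype alone, Benjamini-Hochberg threshold 0.05). The standard error is the log2 fold change divided by the square root of F. The 95% intervals use the t quantile of the test's total degrees of freedom, residual plus prior (6.40 with all 6 libraries). Intervals without wildtype replicate 2 use the degrees of freedom of that fit. Alternatives were DESeq2 1.42.0, limma-voom 3.58.1, other size factors and filters, a replicate block, summed *Nhe6*-knockout replicates 1 and 2, and leaving out each culture. DESeq2 without wildtype replicate 2 was chosen after seeing the data. Every fit without wildtype replicate 2 counted *Nhe6*-knockout replicates 1 and 2 as separate samples. The members and gene lists were chosen with earlier results of these data known. Named genes were the 6 members, the other listed ligands and receptors, those past the threshold and the 3 of smallest p in each further list, and the 3 most alike per member. Level per length used GENCODE M21 exons on GRCm38. Promoter windows came from RefSeq GRCm38.p6, with entries for 4 of the 6 genes. Some genes of the lists are not reported here and are outside their counts. The scripts were tested on simulated data.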

Additional observations from a re-analysis of the deposited data

How the results depend on the processing

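The count of neurotrophin genes past the threshold was 0 under every setting tried except DESeq2 without wildtype replicate 2, which called 1, *Bdnf* (log2 fold change -0.69). *Bdnf* was below 0 in all 15 alternatives, from -1.89 to -0.69, with adjusted p from 0.00966 to 0.837, *Ntrk2* was above 0 (0.057 to 1.36) and *Ntrk3* below 0 (-0.75 to -0.018). *Sort1* ranged from -0.047 to 0.57 when each culture was left out, and was below 0 without *Nhe6*-knockout replicate 3. The number of all genes past the threshold, 9, was 21 with no filter beyond 1 count and also 21 with at least 10 counts in every library, 627 in DESeq2, 1 with *Nhe6*-knockout replicates 1 and 2 summed and 0 to 395 when each culture was left out, with 395 without wildtype replicate 2, where DESeq2 gave 1373. At this depth, counts of at most 19 reads limit what can be said of *Ntf3* and *Ngfr*.

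Same-numbered cultures deviated together with r of 0.198, -0.204 and 0.0937, so the samples share only a number, and not every library correlated best with its own number. With a replicate block, edgeR gave 2 genes past the threshold and 0 neurotrophin genes, and *Bdnf* was at -1.28 (adjusted p = 0.436).

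Among the other ligands and receptors, without wildtype replicate 2 edgeR and DESeq2 gave *Sorcs2* -0.15 and -0.15, and *Nradd* 0.26 and 0.26. *Tnfrsf19* was 0.15 in limma-voom, and *Sorcs1* 0.37 with the summed replicates. When each culture was left out, the ranges were -3.00 to 0.42 for *Sorcs1*, -0.15 to 0.75 for *Sorcs2*, -0.43 to 0.74 for *Sorl1*, -0.31 to 0.26 for *Nradd* and -1.72 to 0.29 for *Tnfrsf19*. The cause of these changes of sign was not tested.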

Other observations

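The GDNF family of ligands and receptors, which like the neurotrophins keeps sensory and autonomic neurons alive, held 12 genes, of which 7 were tested, 0 passed the threshold in edgeR's test and 1 was higher at an unadjusted p under 0.05, beside 11.8% of all genes tested, with a median log2 fold change of -0.0054 (0.011 without wildtype replicate 2). *Gfra1*, the coreceptor of GDNF, held 195, 217 and 124 normalized counts in the *Nhe6*-knockout libraries and 1045, 86.7 and 850 in the wildtype libraries, so that wildtype replicate 2 was the lowest library of all. Its log2 fold change was -1.88 ± 0.81 (adjusted p = 0.439 in edgeR's test) with all libraries and -2.41 without wildtype replicate 2, where the adjusted p was 0.0220 in edgeR's and 2.84e-13 in DESeq2's test. *Sdc3*, a syndecan that binds GDNF family ligands, held 1845, 2044 and 2424 against 1357, 1731 and 1339, without overlap, at 0.51 ± 0.16 (adjusted p = 0.297, and 0.0105 in DESeq2's test without wildtype replicate 2). *Gfra2*, the coreceptor of neurturin, was at -0.73 ± 0.50 (adjusted p = 0.639).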
